A study of Mus musculus with 3 samples.

Results

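The Btg and Tob antiproliferative genes, Btg1, Btg2, Btg3, Tob1 and Tob2, were examined for binding of ZFP410, a zinc finger DNA-binding protein, in mouse brown preadipocytes. These 5 genes, of 21883 protein-coding genes on placed chromosomes, were chosen by their family, and Btg1 also by its peaks in these lists. Its peaks are therefore given as a description. The assay was CUT&Tag, in which a transposase held by an antibody cuts and tags the DNA beside the bound protein. The first library came from cells kept for 3 days in brown adipocyte differentiation medium and taken with a ZFP410 antibody (called induced). The second came from untreated cells with the same antibody, and the last from untreated cells with IgG, the background of the assay. All cells were Lin-CD29+CD34+Sca1+ preadipocytes sorted from brown fat of male C57BL/6 mice. The sources used here do not give their age or the number of animals. Each group held 1 library, so every difference below compares libraries, no p-value is given, and intervals cover counting error only. The cell type could not be checked against marker genes, because the files hold peaks and no expression.

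Proteins of the BTG/TOB family share an N-terminal domain that binds the deadenylases CNOT7 and CNOT8 of the CCR4-NOT complex. They bring this complex to messenger RNAs, whose poly(A) tails are then shortened, and they slow the passage of cells into S phase when present in excess. Tob proteins also bind the cytoplasmic poly(A)-binding protein. In preadipocytes, differentiation goes along with withdrawal from the cell cycle.

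The lists held 7475 induced, 3256 untreated and 480 IgG peaks on the mouse build mm10. The fragments at each summit, the highest point of a peak, were solved from the fold and the p-value that the authors' lists give. The genome-wide background was 0.2462 fragments in the induced, 0.1099 in the untreated and 0.02306 in the IgG library. A site of equal enrichment therefore held 2.24 times as many fragments in the induced as in the untreated library. The lowest number in any solved peak was 4 induced, 3 untreated and 2 IgG fragments.

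In all, 9 peaks had their summit inside or within 10 kb of a Btg or Tob gene, 6 of them induced, 3 untreated and 0 IgG. They lay at Btg1, Tob2 and Btg3. Btg2 and Tob1 had none. Such a peak was present at 3 of the 5 genes in the induced list, against 21.3% of all coding genes. In the untreated list it was present at 2 of the 5, against 11.1%, and in the IgG list at 0 of the 5, against 0.69%. Within 1 kb of a gene end, the induced list had Tob2 alone and the untreated list Btg1 alone, 1 of 5 each, where 8.43% of coding genes passed in the induced and 3.73% in the untreated list. IgG had 0 of 5 there, against 0.0366%. Btg1, chosen also by its peaks, counts within 10 kb in both ZFP410 lists and at a gene end in the untreated list. These counts are therefore a description and do not show that the family stands above all genes. With a window of 2 kb, both Btg1 and Tob2 passed in both ZFP410 lists, so that the change of gene between the lists depends on the window. Where a −log10 q of 5 was required, the induced list kept 0 of the 5 genes at a gene end and 1, Tob2, inside or within 10 kb. Shares of all coding genes under these 2 changed rules are not given, so these counts cannot be set against the percentages above.

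The promoters of Btg1 and Tob2 are shown because a ZFP410 peak covered each of them in a single list. The stretch is the 250 bases before the RefSeq start (GRCm38.p6, the same coordinates as mm10), written 5′ to 3′ on the strand of the gene. It is chr10:96616751-96617000 on the plus strand for Btg1 and chr15:81858327-81858576 on the minus strand for Tob2. Capitals mark every match, on either strand, to the motifs described after them.

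Btg1: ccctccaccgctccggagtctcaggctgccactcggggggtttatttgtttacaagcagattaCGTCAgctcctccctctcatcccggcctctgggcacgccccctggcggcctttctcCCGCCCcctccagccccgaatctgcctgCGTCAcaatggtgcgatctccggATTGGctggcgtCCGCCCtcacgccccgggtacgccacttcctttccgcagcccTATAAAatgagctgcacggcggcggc

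Tob2: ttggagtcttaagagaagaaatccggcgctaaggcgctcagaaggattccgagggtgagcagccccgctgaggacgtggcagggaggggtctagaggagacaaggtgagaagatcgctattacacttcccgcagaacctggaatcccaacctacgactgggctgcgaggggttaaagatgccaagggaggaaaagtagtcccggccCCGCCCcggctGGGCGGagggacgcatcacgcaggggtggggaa

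The motifs searched were CATCCCA and, overlapping it, CCCATAA, parts of the motif known for ZNF410, the human protein, and 4 promoter elements. These were the TATA box TATAAA, the box CCAAT, the GC box GGGCGG and the site TGACG. The last is part of the cAMP response element. Neither part of the ZNF410 motif lay in the 250 bases before any RefSeq start of Btg1, Btg2, Btg3, Tob1 or Tob2. Among all 21262 promoters of coding genes 3.78% held CATCCCA and 2.17% held CCCATAA. The Btg1 promoter held TATAAA from 26 bases before the start, as 11.6% of all promoters did, and ATTGG, the reverse complement of CCAAT, from 80 bases before it, a motif in 35.4%. It also held CCGCCC, the reverse complement of GGGCGG, from 131 and 68 bases before the start (42.6% of promoters), and CGTCA, the reverse complement of TGACG, from 187 and 103 bases before it (20.2%). The Tob2 promoter held only the GC box, as CCGCCC from 44 and as GGGCGG from 33 bases before the start. Its GC content was 60.4%, against 65.2% for Btg1, 73.2% for Btg2, 73.6% for Tob1, 57.2% and 75.2% at the RefSeq starts of Btg3, and a median of 55.6% over all promoters (quartiles 47.2% and 64.0%). The motifs were picked with the promoters already seen, so their shares are a description. Promoters with their whole length inside a peak, which favours wide peaks, are set beside these, 225 in the induced and 34 in the untreated list. Their median GC content was 62.8% induced and 64.0% untreated, the GC box was in 70.7% and 76.5% of them, and TGACG in 43.6% and 32.4%, in the same order. CATCCCA was in 3.11% induced and 2.94% untreated, and CCCATAA in 2.22% and 2.94%.

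Btg1 encodes a protein known from quiescent lymphocytes and from translocations in B-cell leukaemia. It is a gene of 5813 bp on the plus strand of chromosome 10 (96617001 to 96622813), and the nearest other coding gene, Gm46240, lay 272822 bp from the closest of its peaks. Its promoter carried a peak in the untreated list and none in the induced list. The untreated peak (96616450 to 96617090) had its summit 390 bp before the start and covered the start itself. It held 10 fragments (95% Poisson interval 4.80 to 18.4) at a fold of 9.62 and ranked 174 of its list, over a local background 1.31 times that of the genome. No induced peak overlapped it, and the nearest induced summit was 5084 bp away. At equal enrichment the induced library would have held 22.4 fragments there (10.7 to 41.2), where 4 was the lowest number listed. A site known from its call in a single list favours that list, so that 22.4 may be too high. Btg1 was also chosen for this very pattern, which is given as a description and shows no difference between the libraries by itself.

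The untreated peak of Btg1 was wide, at 641 bp, and 3.16% of the untreated list was as wide. Among the 59 untreated peaks with 10 fragments the median width was 282 bp. The untreated list held 1703 peaks that no induced peak overlapped, and 31 of them held 10 fragments or more. Of those that also covered a RefSeq start, 84 in all, 2 held 10 or more, Btg1 among them. Because Btg1 was chosen by this peak, these shares describe it and do not show that it is unusual. RefSeq starts of coding genes lay inside an induced peak at 4.22% of genes and inside an untreated peak at 1.46%. Among the 5 family genes these were Tob2 alone in the induced list and Btg1 alone in the untreated list.

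Further along Btg1 the induced list had weak peaks where the untreated list had none. The first (96621659 to 96621910) lay inside the gene with its summit 4694 bp past the start and 1118 bp from the far end. It held 5 fragments (1.62 to 11.7), ranked 6194 of 7475, and stood on a local background 1.31 times that of the genome. The second (96628310 to 96628656) lay 5691 bp beyond the gene and held 6 fragments (2.2 to 13.1) at rank 3660. At equal enrichment the untreated library would have held 2.23 and 2.68 fragments at these sites, under the 3 of its weakest peak. Their absence from the untreated list was therefore not detectable as a difference at this depth. RefSeq also lists Btg1b and Btg1c, coding genes on chromosome X. Neither had a summit within 10 kb in any list, and how reads shared with them were placed is not given in the sources used here.

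**Figure D1:**
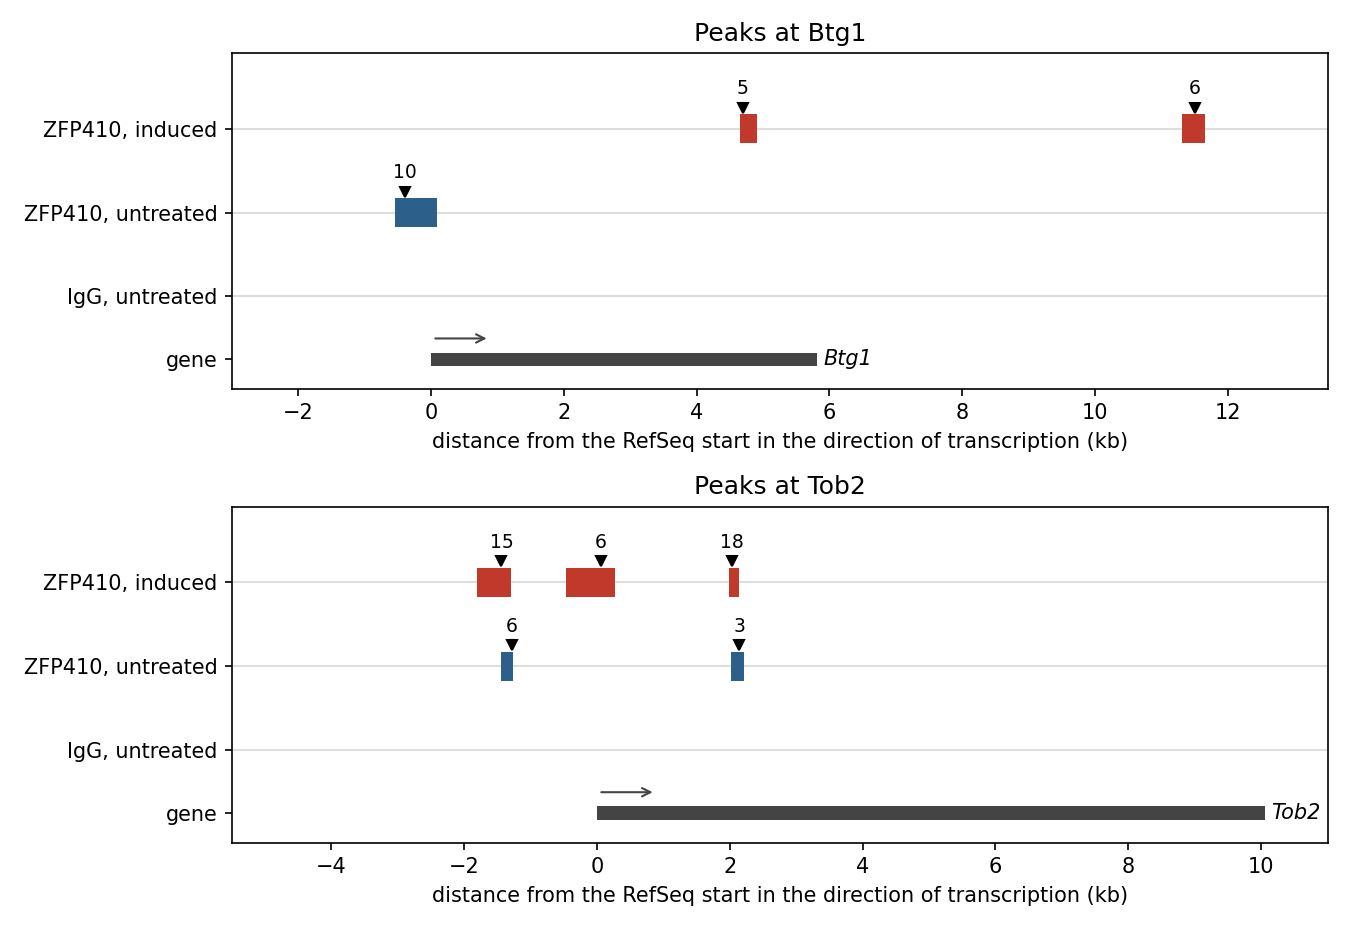
Peaks at Btg1 (top) and Tob2 (bottom) by distance from the RefSeq start in kb, with transcription running to the right. Bars are peak intervals of the induced, untreated and IgG lists, triangles are summits, and the number above each is its summit fragments. At Btg1 the untreated peak of 10 fragments sits at the start and the induced peaks of 5 and 6 lie further along. At Tob2 both lists have peaks upstream and inside, and the induced list alone has one at the start.

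Tob2, whose protein carries both the deadenylase-binding domain and sites for the poly(A)-binding protein, had the most peaks of the family and its highest ranks in the induced list. Over the genome background of its own library, however, the untreated Btg1 promoter peak had the highest enrichment of the family, 91.0. The leading induced peaks of Tob2 had 73.1 inside the gene and 60.9 upstream. Over the local background the order turned, with 69.6 for the Btg1 peak and 73.1 for the induced peak inside Tob2. Which peak leads therefore depends on the background, and Btg1 was chosen by its peaks. The Tob2 gene spans 10057 bp on the minus strand of chromosome 15 (81848270 to 81858326). It had 3 induced and 2 untreated peaks, and 1.51% of coding genes had as many as 3 induced peaks inside or within 10 kb. The peak inside the gene (81856183 to 81856340 induced, 81856115 to 81856309 untreated) lay 2025 bp past the start in the induced and 2139 bp past it in the untreated list. It held 18 fragments (10.7 to 28.4) in the induced library, at rank 304 of 7475, and 3 fragments (0.619 to 8.77) in the untreated library, at rank 2380 of 3256. The enrichment ratio, induced over untreated, was 2.68, with an exact binomial interval of 0.782 to 14.2 that includes 1.

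Upstream of Tob2 a second site was listed in both ZFP410 libraries. It lay 1441 bp before the start in the induced list (81859628 to 81860128) and 1287 bp before it in the untreated list (81859596 to 81859767). It held 15 fragments (8.40 to 24.7) in the induced library, at rank 461, and 6 (2.2 to 13.1) in the untreated library, at rank 615. The ratio of enrichment was 1.12 (0.409 to 3.51). Over all 1296 overlapping pairs with local backgrounds of at most 2 times the genome level, the median ratio was 0.826 (quartiles 0.625 and 1.16). Of these pairs 2.24% had a ratio as high as the site inside Tob2 and 28.5% one as high as the upstream site. The untreated peak inside the gene stood at the lowest number listed, which leaves its ratio the less certain of the pair.

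The start of Tob2 itself was covered by a peak of the induced list only (81858062 to 81858800), with its summit 58 bp past the start. It held 6 fragments (2.2 to 13.1) at a fold of 5.62 and rank 3660. The untreated library would have held 2.68 fragments there at equal enrichment, under its lowest listed number of 3, so this peak does not set the libraries apart. The induced peaks of Tob2 differed in shape. The peak at the start was 739 bp wide, and 0.84% of the 1191 induced peaks with 6 fragments were as wide. The peak inside the gene was 158 bp wide, and none of the 64 induced peaks with 18 fragments was narrower (median 445 bp). At all 5 peaks of Tob2 the solved local background equalled that of the genome.

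The sites at Tob2 lay closer to Tob2 than to any other coding gene. The next was Phf5a, which encodes a splicing factor, with its near end 4749 bp from the induced upstream summit and 4903 bp from the untreated one. Within the limit of 10 kb, the farthest summit of any family gene was the Btg1 one at 5691 bp.

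**Figure D2:**
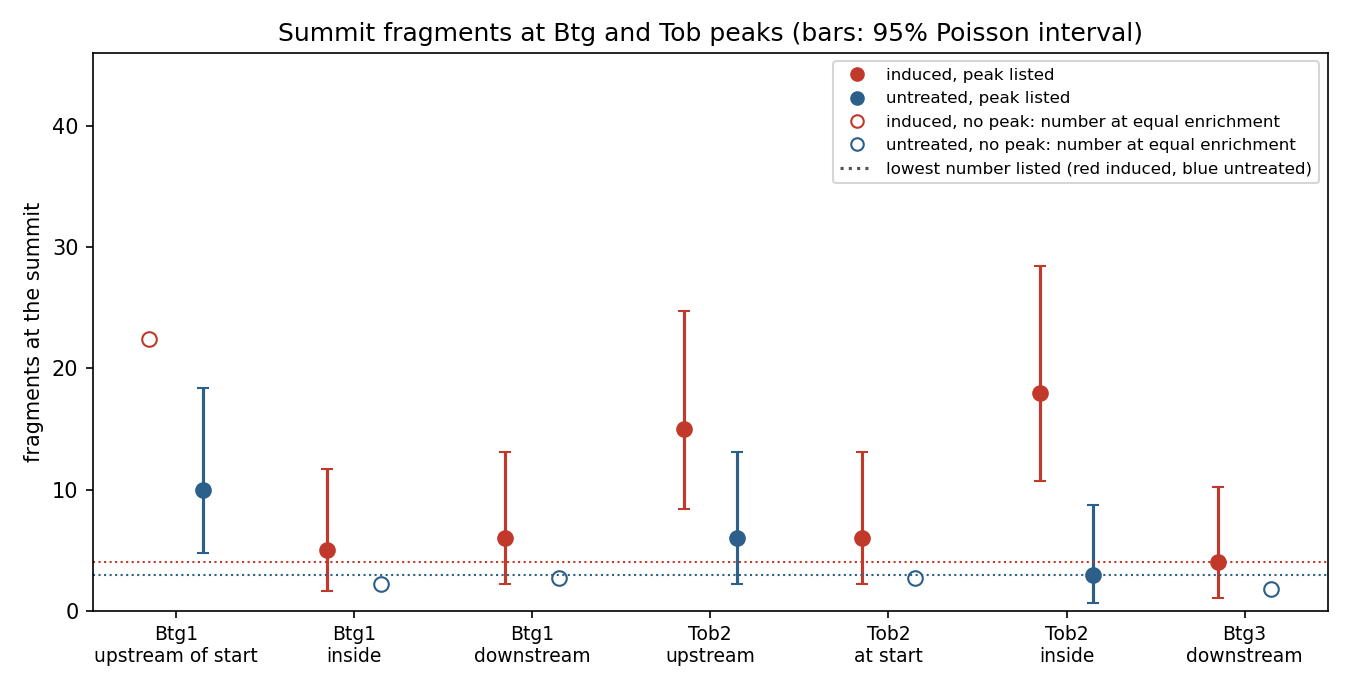
Fragments at the summit of every Btg1, Tob2 and Btg3 peak, with 95% Poisson intervals, induced left of untreated at each site. Open circles give the number a library without a peak would hold at equal enrichment, and dotted lines the lowest number listed in the induced (4) and the untreated (3) library. The open circle of the induced library at the Btg1 promoter, 22.4, lies far above its line, and those of the untreated library lie below theirs.

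At Btg3, Btg2 and Tob1 few or no peaks were listed. Signal under the lowest listed numbers cannot be seen in peak lists. Btg3, also known as ANA, had an induced peak of 4 fragments (1.09 to 10.2) at 78354696 to 78354908 on chromosome 16, 5078 bp past its downstream end. That summit lay inside the neighbouring gene Cxadr, which encodes a cell adhesion protein, and its number is the lowest in the induced list. The untreated library would have held 1.79 fragments there, and its nearest summit was 757004 bp from Btg3. Btg2, a target of p53 that is also induced early by growth factors, had its nearest summit 121487 bp away in the induced and 121437 bp away in the untreated list. These summits belonged to overlapping peaks of 11 induced and 4 untreated fragments. For Tob1, the closest relative of Tob2, the distances were 110723 bp in the induced and 214063 bp in the untreated list. Btg4, the family gene active in oocytes, had its nearest summits 68737 and 214591 bp away in the same order.

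**Figure D3:**
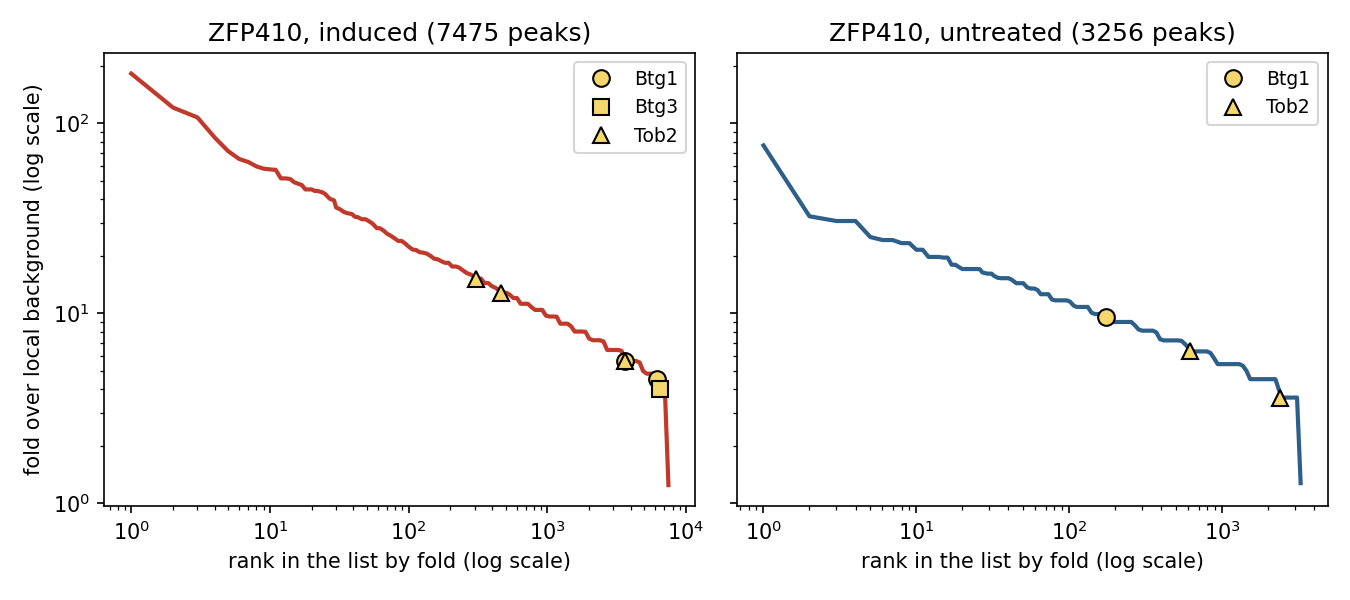
Fold over the local background against rank in the list for all induced (left) and untreated (right) peaks, both axes logarithmic, with the peaks of Btg1, Btg3 and Tob2 marked. In the induced list the Tob2 peaks at ranks 304 and 461 stand above all others of the family, and in the untreated list Btg1 leads at rank 174.

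IgG had no peak near any of these genes, and the nearest IgG summit was 1726995 bp from Tob2 and 2640544 bp from Btg1. At equal enrichment the IgG library would have held 2.1 fragments at the Btg1 promoter, 1.69 at the induced site inside Tob2 and 1.40 at the one upstream, where its lowest listed number was 2. IgG was therefore too shallow to give a background at the sites of Tob2, and only just reached the number needed at Btg1.

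The partners of the family in mRNA decay were described next, as a list of 17 genes of the CCR4-NOT complex, the PAN2-PAN3 and PARN deadenylases and poly(A)-binding proteins. A gene-end peak was present at 3 of 17 in the induced list, where all coding genes stood at 8.43%, and at 6 of 17 in the untreated list, where they stood at 3.73%. IgG had 0 of 17. The list was chosen with earlier results of these data known, so its counts are a description. Cnot3, a regulatory subunit, and Cnot10, of the CNOT10-CNOT11 module, had peaks in both lists. Cnot3 held 13 fragments in the induced and 4 in the untreated library, and Cnot10 held 9 in the induced and 4 in the untreated library. At equal enrichment, 4 untreated fragments correspond to 8.96 induced ones, so Cnot10 was about equal in both and Cnot3 somewhat higher in the induced library. These numbers are low, and the difference at Cnot3 was not tested. Pan2, which encodes a deadenylase, had a peak of 9 fragments in the induced list only. It would have held 4.02 in the untreated library at equal enrichment.

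The untreated list alone had gene-end peaks at Cnot2, Cnot9 and Cnot11, subunit genes of the complex, with 4 fragments each, and at Pabpc1, the gene of the main cytoplasmic poly(A)-binding protein, with 5. At equal enrichment the induced library would have held 8.96 fragments at each of the first and 11.2 at Pabpc1, above its lowest listed number of 4. As at Btg1, a site known from its call in a single list favours that list, so these numbers may be too high. Counting error on so few fragments is also wide, so the peaks do not by themselves show a loss after induction. The untreated numbers are low, and the untreated list kept 0 of the 17 where a −log10 q of 5 was required and 1 where a fold of 5 was. Shares of all coding genes at these thresholds are not given. Cnot7 and Cnot8, the deadenylases that the family binds, had no gene-end peak in any list, although Cnot7 had an induced peak inside or within 10 kb.

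A list of 20 other genes of growth arrest had gene-end peaks at 4 in the induced, 1 in the untreated and 0 in the IgG list. All coding genes stood at 8.43%, 3.73% and 0.0366% in these lists, so that the untreated 1 of 20 (5.0%) was near the share of all genes. These 20 genes too were chosen with earlier results of these data known, and their counts are a description. Prmt1, the gene of an arginine methyltransferase that binds BTG1 and BTG2, held 11 induced fragments. Trp53, the gene of p53, had 2 induced peaks, of 11 and 6 fragments, which it shares with its neighbour Wrap53. Foxo3, a forkhead transcription factor gene, and Gadd45b, a stress-response gene, held 7 each. Gadd45b stood over a local background 4.06 times that of the genome, and the Trp53 peaks over one 1.63 times that of the genome. The untreated peak was at Gadd45a, another stress-response gene, with 6 fragments, equal in enrichment to 13.4 induced ones. At equal enrichment the untreated library would have held 4.91 fragments at Prmt1 and at the stronger Trp53 peak, above its lowest number of 3. It would have held 3.12 at Foxo3 and Gadd45b and 2.68 at the weaker Trp53 peak, close to or under that number. As at Btg1, a call in a single list favours that list, so these numbers and the 13.4 of Gadd45a may be too high. Cyclin-dependent kinase inhibitor genes had no gene-end peak, although Cdkn1a had an induced peak inside or within 10 kb.

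**Figure D4:**
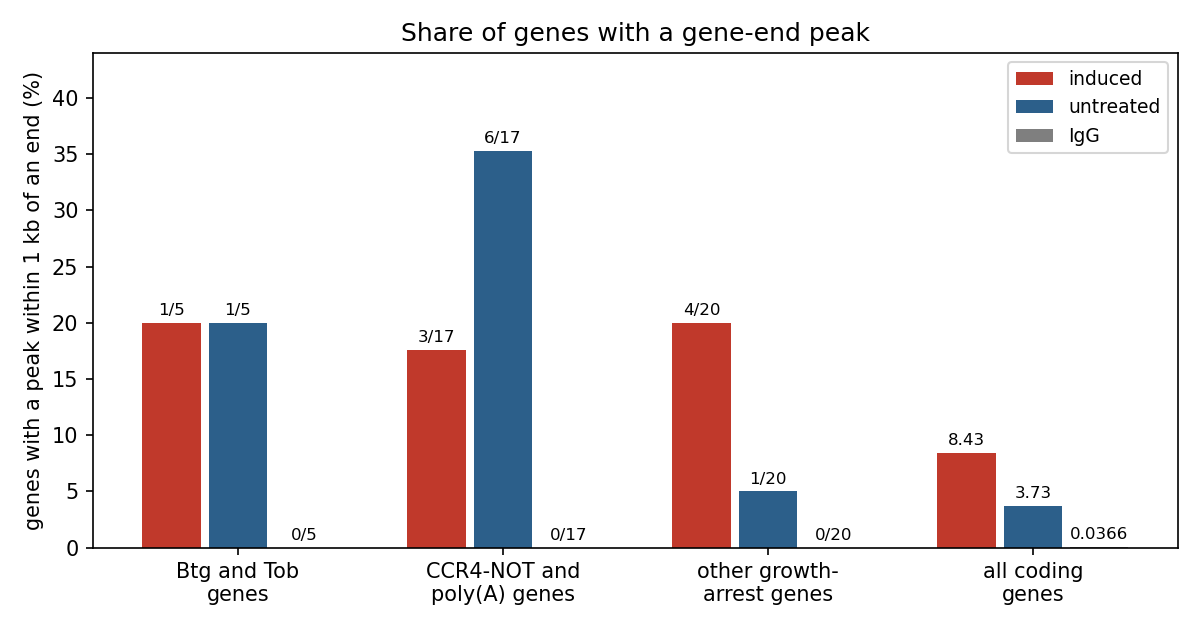
Share of genes with a summit within 1 kb of either gene end, in percent, for the Btg and Tob genes, the 2 other lists and all coding genes, with induced, untreated and IgG bars from left to right. Numbers above the bars are genes with a peak over genes in the list, or the percentage for all coding genes. The poly(A) list stands at 3 of 17 induced and 6 of 17 untreated, and the growth-arrest list at 4 and 1 of 20.

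Genes patterned like Btg1 were looked for next. The pattern was written from the peaks of Btg1 itself, so the place of Btg1 among these genes is a description. Its induced summit, 1118 bp from the far end, would fall outside a window of 1 kb. Whether the number of such genes differs from what the lists would give by position alone was not tested. The pattern asked for an untreated peak within 1 kb of an end of a gene, an induced peak within 2 kb of its other end, no overlap of either with a peak of the other list, and no IgG peak within 2 kb. Over the 3 libraries 8 coding genes met it, Btg1 and 2 predicted genes included. The rest, by the lower of their fragment numbers, were Bad, a gene of apoptosis (25 induced and 6 untreated fragments), Acaa1a, of peroxisomal fatty acid oxidation (9 and 5), Slc7a6os (5 and 5), Phf23 (11 and 4) and Creb3l2, of the CREB3 family of transcription factors (6 and 3). The untreated peak of Btg1, with 10 fragments, was the strongest of the 8, and its induced peak, with 5, tied for the weakest.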

How the data were processed

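CUT&Tag peak lists of 3 libraries were analysed, 1 per group by the labels. Per the submitters' processing notes, the tools were Bowtie2 2.2.6, Picard and MACS2 2.1.1 and the build mm10. The deposited columns used were the fold over local background, −log10 p, −log10 q and the summit offset. The deposited score is the −log10 q on a larger whole-number scale and was not used. Peak names carry a q threshold of 0.1, per the deposited files. The sources used here do not give the control or the treatment of duplicates.

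Whole fragments and the local background were solved from fold and p together (scipy 1.17.1, Python 3.11.15) with a gap under 0.001 in −log10 p for 7473 of 7475 induced, 3255 of 3256 untreated and 480 of 480 IgG peaks. Simulated peaks gave back their planted number in 100.0%, 99.9% and 100.0% of 990, 981 and 970 peaks. Enrichment is fragments over the genome background. Genes, RefSeq starts and sequences came from RefSeq tables of GRCm38.p6, in which 5 of 5 genes matched by symbol and 17491 of 21883 coding genes had a start. Named genes were the family, list genes with a gene-end peak, neighbours, and the genes most like Btg1. The members and lists were chosen with earlier results of these data known. The motifs were chosen after the promoters had been seen. Alternatives were the window, peak threshold, overlap and scale, and 1 added after the data were seen, a RefSeq start in place of either gene end.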

Additional observations from a re-analysis of the deposited data

How the results depend on the processing

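Of the alternatives that gave a value, 66 stayed within 1.5 times the reported value and 9 moved it further. The 66 include IgG counts that stayed at 0, and also counts that changed within that limit. With a reach of 5 kb, the family genes with an induced peak inside or nearby fell from 3 to 2. With the RefSeq start, which 14 of the 17 poly(A) genes had, the untreated list fell from 6 to 4 and the induced list rose from 3 to 4. The 2 lists then had equal counts, so the contrast of 3 and 6 depends on this choice. With a window of 2 kb, a gene-end peak was listed at 2 of the 5 genes induced and 2 untreated, and growth-arrest genes numbered 3 in the untreated list. Counting any base of a peak within 1 kb gave 2 family genes in the induced list and 2 growth-arrest genes in the untreated list. Where a −log10 q of 5 was required, the induced list kept 0 family genes at a gene end and 1 inside or within 10 kb, Tob2, and the untreated list kept 0 poly(A) genes. With a fold of 5 the untreated list kept 1 poly(A) gene. Shares of all coding genes under these alternatives are not given, so the counts cannot be set against those of the main rules. Scaled by a relative depth of 2.01, the Tob2 ratios were 2.99 inside and 1.24 upstream, and the Btg1 promoter would have held 20.1 induced fragments. The RefSeq start, added after the data were seen, moved no count by over 1.5 times. Summits of the Tob2 pairs lay 114 and 154 bp apart, so that the setting of 100 bp left no pair and no value, and is in neither number. No paired analysis was possible because each group held 1 library, and no library could be left out.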
